A study of Mus musculus with 20 samples.

Results

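Sterol and fatty acid synthesis genes were described in mouse malignant mesothelioma (MM) grown as MM organoids in 3D culture and as 2D MM cell lines. The 36 genes comprise 18 enzymes of sterol synthesis, 6 regulators and carriers of sterols and 12 enzymes of fatty acid synthesis, and they were taken by gene symbol from the 21884 rows of the deposited expression table. Each of the 36 had 1 row, and all 36 passed the filter on low values, which asked for at least 1 CPM (reads of a gene per 1000000 reads of its library) in at least 7 of the 14 libraries. From each of 7 MM lines there was 1 library of organoids and 1 of 2D cells. Crocidolite, an asbestos fibre, was injected intraperitoneally into the p53+/- mice behind m5, m12, m28, m54 and m60 and into the WT mouse behind m67, while the p53+/- mouse behind m107 received carbon nanotube, and all mice were C57/BL6. Each line traces to the tumour or ascites of a single mouse, so the lines and not the cells are the replicates. The methods of the study describe organoids on Matrigel in a medium with EGF, R-spondin1, Noggin and the ROCK inhibitor Y-27632 that names no serum, and 2D cells in a medium with fetal bovine serum, whereas the sample descriptions give a medium with serum for every sample. Matrix, medium and shape of culture changed together, and their shares in a difference between 3D and 2D cannot be told apart. The 6 samples of normal mesothelial cells in the series were not analysed here.

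Cholesterol is built from acetyl-CoA through the mevalonate pathway to farnesyl diphosphate, and then through squalene and lanosterol by a chain of sterol-modifying enzymes. Fatty acids are built from the same acetyl-CoA by carboxylation, chain synthesis, elongation and desaturation. Many of these genes are known targets of the SREBP transcription factors, which the escort protein SCAP carries from the endoplasmic reticulum to the Golgi for cleavage when membrane sterols are low, and which the INSIG proteins hold back when sterols are plentiful.

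SREBPs are known to bind a sterol response element near the start of these genes, often close to CCAAT, the letters bound by NF-Y, and to GGGCGG, bound by Sp1. RefSeq promoter windows of 300 bases (250 before and 50 after the start, build GRCm38.p6) matched 30 of the 36 genes, in 41 windows, and Fdps, Sqle, Fdft1, Scd1, Scd2 and Fads1 were not matched. Both strands were searched. The sterol response element TCACCCCAC stood in a window of 1 of 30 genes, Hmgcs1, beside 0.614% of the 27025 genes of the promoter table and 0.551% of its 32851 windows. Its wider form TCACNCCAN, which includes the first, stood in 4 of 30 genes (13.3%), Hmgcs1, Msmo1, Srebf2 and Apoe, beside 4.95% of all genes and 4.35% of all windows. CCAAT was found in 24 of 30 genes (80.0%), among them 14 of 15 sterol synthesis enzymes and 6 of 9 fatty acid enzymes, beside 41.1% of all genes, 37.4% of all windows and 43.6% of the 9342 tested genes with a window. GGGCGG was found in 23 of 30 genes (76.7%), beside 38.2% of all genes and 71.4% of the tested genes, so this share lay near that of expressed genes. The E-box CACGTG was found in 6 of 30 genes, beside 8.09% of all genes and 11.9% of the tested genes. A match describes letters in a window and not a bound site. The 2 sequences printed here are upstream sequences that hold the element outside an annotated exon of a protein-coding gene, in its exact form in Hmgcs1 and only in its wider form in Srebf2, and they belong to an early enzyme of the pathway and to its main transcription factor. Capitals mark these forms of the element and CCAAT or its reverse complement ATTGG, and both were located by an exact match in GRCm39, at chr13:120151637-120151886 (plus strand) for Hmgcs1 and at chr15:82031220-82031381 (plus strand) for Srebf2. The Hmgcs1 sequence runs up to the RefSeq start, while that of Srebf2 was ended at an annotated exon, 88 bases before the start.
Hmgcs1: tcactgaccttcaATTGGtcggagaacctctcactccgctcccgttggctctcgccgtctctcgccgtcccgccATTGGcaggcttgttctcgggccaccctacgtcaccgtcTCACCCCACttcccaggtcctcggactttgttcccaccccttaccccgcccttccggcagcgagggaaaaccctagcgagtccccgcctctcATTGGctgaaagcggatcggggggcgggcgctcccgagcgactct
Srebf2: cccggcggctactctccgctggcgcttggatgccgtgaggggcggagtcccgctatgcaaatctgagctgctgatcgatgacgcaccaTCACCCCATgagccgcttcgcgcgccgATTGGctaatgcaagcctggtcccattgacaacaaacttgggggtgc
In Hmgcs1 the element began at position -137 from the RefSeq start, between CCAAT matches at -176 and -45. In Srebf2 the wider form began at -162, with a CCAAT match at -135, both counted from the RefSeq start and not from the end of the printed sequence.

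The libraries held 11134018 to 53911770 reads, and those of m5 and m12 were deeper, with at least 37301801 reads against at most 20770483 in the other lines. Every member had at least 6 reads in every library. Y-linked reads (4 genes) were 0 in the m5 organoids and 12572 in the m5 2D cells, and 10773 in the m12 organoids and 0 in the m12 2D cells. On this measure the libraries of m5 and m12 did not match their own partners. In m28 such reads were 0 in the organoids and 10 in the 2D cells, although the methods describe the injection of male mice. Whether the names m5 and m12 were exchanged in 1 of the cultures was not tested, and each difference given for m5 or m12 rests on the names as deposited. Fits without m5 and m12 are therefore given beside the main calls. The library 3D m12 stood furthest from the others (mean r = 0.689 across genes), with a sum of 5133 CPM over 10 epithelial markers, against at most 1178 CPM in any other library. Its 10 mesothelial markers summed to 7916 CPM, inside the range of 726 to 12564 CPM over the libraries. Most of this sum came from the keratins Krt8 (2576 CPM), Krt18 (2023 CPM) and Krt19 (2493 CPM). Msln had 647 CPM and Podxl 176 CPM. Upk3b (1.06 CPM), Lrrn4 (0.111 CPM), Wt1 (0.0371 CPM) and Cdh2 (0.0371 CPM) were near 0, and Gpm6a was at 0. The 11 macrophage and leukocyte markers together took 2238 CPM in 3D m67, where Lyz2 had 821 CPM, and no more than 204 CPM in any other library. In 3D m60, 369 CPM of proliferation markers were measured, against 2042 CPM in 2D m60 and 1199 to 2777 CPM in the other organoids. Their sum was also lower in 3D than in 2D in m5 (1199 against 2990 CPM), m12 and m28, and higher in m54, m67 and m107. In such bulk samples fewer cells of a type and less RNA per cell cannot be told apart.

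In MM organoids 4 of the 36 genes rose and 0 fell. These were Insig1, the sterol sensor that retains SREBP precursors; Elovl6, which elongates palmitate; Scd1, a stearoyl-CoA desaturase; and Acss2, which makes acetyl-CoA from acetate. On GRCm39 they lie at chr5:28276315-28283668 (Insig1, plus strand), chr3:129326004-129432144 (Elovl6, plus strand), chr19:44382894-44399154 (Scd1, minus strand) and chr2:155355679-155428016 (Acss2, plus strand). They were called with limma on log2(CPM + 1) with line as a block, at a Benjamini-Hochberg adjusted p under 0.05 over 11677 genes. The same test called 2.10% of all genes higher and 1.18% lower in 3D (245 and 138 genes), a split that became 168 and 168 with TMM scaling and 180 and 170 with quantile normalization. None of the 18 sterol synthesis enzymes passed the threshold, although 17 of 18 had a positive log2 fold change with an unadjusted p under 0.05, which 16.5% of all tested genes had, and edgeR also called 0 of them. The same was true of 5 of 6 regulators and carriers and of 5 of 12 fatty acid enzymes. The median log2 fold change was 1.38 over the sterol synthesis enzymes, 0.86 over the regulators and carriers and 0.33 over the fatty acid enzymes, beside 0.06 over all tested genes.

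Direction was shared by more genes than the threshold shows. Levels were higher in 3D in at least 6 of 7 lines for 22 of the 36 genes, namely 11 sterol enzymes, 5 regulators and carriers and 6 fatty acid enzymes, beside 23.0% of all tested genes. With DESeq2 on the recovered reads 20 of 36 genes were called higher, 12 of them sterol synthesis enzymes, beside 8.67% of all genes, and with edgeR's quasi-likelihood test 1 of 36, Elovl6, beside 0.368%. No tool or setting called a member lower, and 0 of 36 had a negative log2 fold change with an unadjusted p under 0.05. Without m5 and m12, limma called 5 of 36 genes higher (Elovl6, Insig1, Apoe, Tm7sf2 and Scd2), beside 1.86% of all genes. Calls of single genes thus changed with the tool and the lines used, and only Elovl6 was called by each of limma, edgeR and DESeq2 on all 7 lines.

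**Figure D1:**
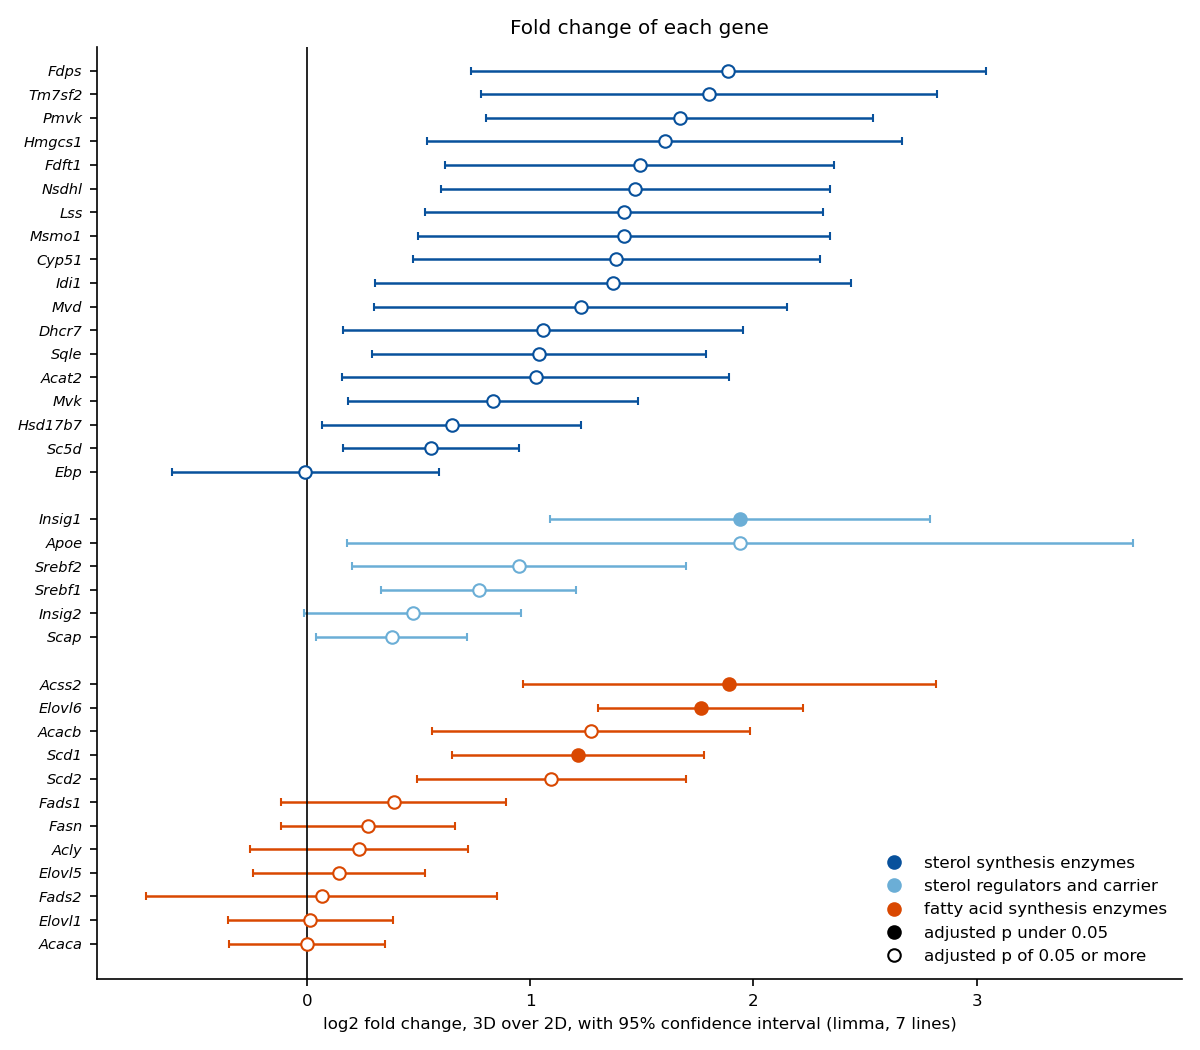
Log2 fold change of 3D over 2D culture for each of the 36 genes (x axis, limma on log2(CPM + 1), 7 lines), with 95% confidence intervals as bars, colours for the 3 groups of genes and filled points for an adjusted p under 0.05. Filled points are Insig1, Acss2, Elovl6 and Scd1, and 17 of 18 sterol synthesis enzymes lie to the right of 0 with open points.

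The early steps of the pathway lead from acetyl-CoA to farnesyl diphosphate. Hmgcs1, which makes HMG-CoA, stood at 46.1 to 849 CPM (median 347) in MM organoids and at 41.3 to 308 CPM (median 84.1) in 2D MM cell lines. The ranges overlapped, since the highest 2D level, in m107, exceeded 3 of the 7 organoid levels. On the log2 scale the fold change was 1.60 with an SE of 0.47 (adjusted p = 0.0870, limma). Acat2, a thiolase that makes acetoacetyl-CoA, had 24.5 to 146 CPM (median 126) in 3D and 26.1 to 55.7 CPM (median 46.3) in 2D, and 5 of 7 organoids lay above every 2D library. Up to 29.6% of its transcript's 100-base windows also occur in Acat3, so reads of the pair may be shared.

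Mvk, Pmvk and Mvd carry mevalonate through phosphorylation and decarboxylation. Of these, Pmvk came closest to the threshold, with 8.91 to 90.1 CPM (median 56.4) in 3D and 9.06 to 20.1 CPM (median 13.9) in 2D. Its organoid levels lay above the whole 2D range in 6 of 7 lines and below it in m60 (log2 fold change 1.67, SE 0.38, adjusted p = 0.0540, limma). Mvk had a log2 fold change of 0.83 (adjusted p = 0.121, limma) and Mvd of 1.23 (adjusted p = 0.112, limma), both higher in 5 of 7 lines.

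Idi1 isomerises isopentenyl diphosphate and Fdps joins such units into farnesyl diphosphate. Fdps stood at 15.8 to 255 CPM (median 154) in MM organoids and at 14.4 to 48.0 CPM (median 30.1) in 2D MM cell lines. Its log2 fold change was 1.89 with an SE of 0.51 and a 95% confidence interval of 0.74 to 3.04 (adjusted p = 0.0713, limma), and 6 of 7 organoids lay above every 2D library. Idi1 had 6.11 to 98.7 CPM (median 67.7) in 3D and 6.96 to 30.0 CPM (median 20.7) in 2D, with a log2 fold change of 1.37 (SE 0.47) that missed the threshold. Other annotated copies share 20.05% of the 100-base windows of Fdps and 23.5% of those of Idi1, so their levels are less certain.

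Fdft1 and Sqle commit farnesyl diphosphate to sterols by making squalene and its epoxide, and Lss closes the ring to lanosterol. Fdft1 had 45.2 to 285 CPM (median 173) in 3D and 33.7 to 149.6 CPM (median 45.8) in 2D (log2 fold change 1.49, SE 0.38, adjusted p = 0.0667, limma). Sqle had 77.9 to 1188 CPM (median 268) in 3D and 75.5 to 301 CPM (median 120.3) in 2D, and its highest value in both cultures was in m28 (log2 fold change 1.04, SE 0.33). Lss had 39.4 to 292 CPM (median 133) in 3D and 36.8 to 95.7 CPM (median 41.1) in 2D, with 6 of 7 organoids above the 2D range (log2 fold change 1.42, SE 0.39, adjusted p = 0.0757, limma).

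The later enzymes strip methyl groups from lanosterol and move its double bonds. Cyp51, the lanosterol 14-demethylase, stood at 62.7 to 679 CPM (median 358) in MM organoids and at 48.2 to 228 CPM (median 111) in 2D MM cell lines. Msmo1, a sterol methyl oxidase, had 38.2 to 334 CPM (median 226) in 3D and 29.0 to 130.1 CPM (median 62.6) in 2D, and Nsdhl, which acts with it, had 14.8 to 126 CPM (median 62.7) in 3D and 12.3 to 24.0 CPM (median 15.6) in 2D. For all of Cyp51, Msmo1 and Nsdhl, every organoid other than m60 lay above the whole 2D range, and log2 fold changes were 1.39, 1.42 and 1.47 (adjusted p = 0.0850, 0.0823 and 0.0681, limma).

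Tm7sf2, a sterol 14-reductase, had the lowest CPM of the sterol enzymes, a value not scaled for gene length, and was the only one higher in 3D in 7 of 7 lines. It stood at 4.09 to 45.2 CPM (median 7.36) in MM organoids and at 1.03 to 3.80 CPM (median 2.22) in 2D MM cell lines, so the cultures did not overlap. The log2 fold change was 1.80 with an SE of 0.45 (adjusted p = 0.0623, limma), and it passed without m12 (adjusted p = 0.0294, limma) and without m5 and m12 (adjusted p = 0.0357, limma). Tm7sf2 overlaps Vps51 on the same strand, so reads of these genes may be mixed.

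Of the enzymes near the end of the chain, log2 fold changes were 0.65 for Hsd17b7, a 3-ketosteroid reductase, 0.56 for Sc5d, the C5 desaturase, and 1.06 for Dhcr7, which makes cholesterol from 7-dehydrocholesterol (adjusted p = 0.162, 0.0972 and 0.144, limma). Ebp, the sterol isomerase, was the exception among the sterol enzymes, at 22.5 to 89.5 CPM (median 27.9) in 3D and 26.0 to 40.2 CPM (median 34.3) in 2D. It was lower in 3D in 5 of 7 lines and higher in m12 and m67 (log2 fold change -0.01, 95% confidence interval -0.60 to 0.59, adjusted p = 0.992, limma).

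**Figure D2:**
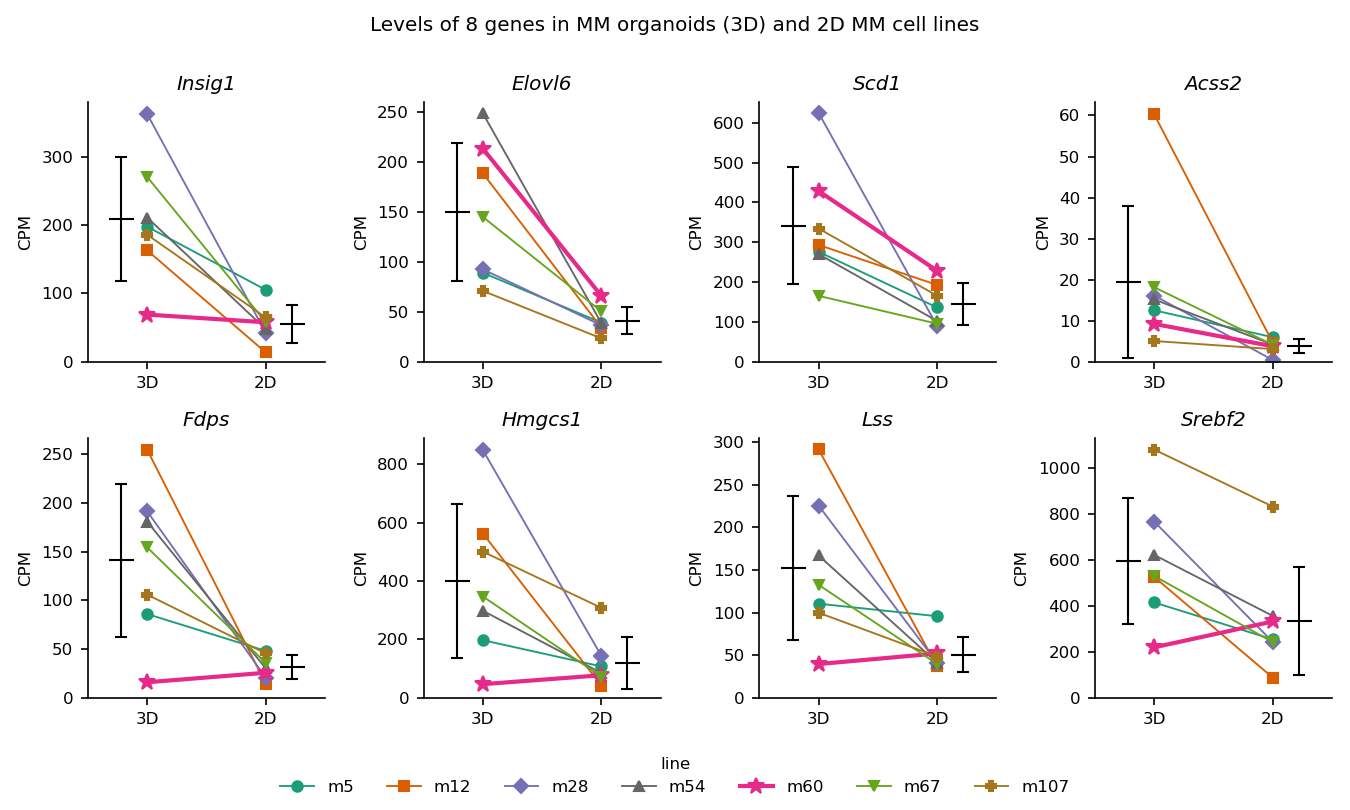
Levels in CPM (y axis) of 8 genes in MM organoids (3D, left) and 2D MM cell lines (2D, right), with 1 point per library, lines joining the libraries of a line, and the mean and SD over 7 lines beside the points. The line m60 (star) slopes the other way for Fdps, Hmgcs1, Lss and Srebf2 but not for Insig1, Elovl6, Scd1 and Acss2.

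The line m60 ran against the others for most sterol enzymes, which was known when the genes were chosen and is therefore described without a test. In m60, 17 of 18 sterol synthesis enzymes were lower in 3D than in 2D, with differences of -0.98 (Sqle) to -0.03 (Nsdhl) on the log2(CPM + 1) scale. Tm7sf2 alone was higher in m60, by 0.66. Of the 18, 6 were lower in 3D in m5, 2 in m107, 1 in m28, 1 in m54 and 0 in m12 and m67. The median difference over the 18 enzymes was -0.46 in m60, and 2.94 in m12, 2.06 in m28, 1.86 in m54, 1.63 in m67, 0.87 in m107 and 0.42 in m5. Over all tested genes the medians per line lay between -0.01 (m60) and 0.16 (m67). In total the 18 enzymes took 577 CPM in 3D m60 and 858 CPM in 2D m60, while in m28 they took 4577 CPM in 3D and 1035 CPM in 2D.

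It was the organoid library of m60 that stood apart. Of the 7 organoids, 3D m60 had the lowest level for 17 of 18 sterol synthesis enzymes, beside 2649 of the 11677 tested genes. Among the 2D libraries, 2D m60 was the lowest for 0 of the 18 and the highest for 1. Over the 11677 tested genes it was the lowest of the 2D libraries for 890 and the highest for 1607. The line had the smallest of the 7 differences for 16 of 18 sterol enzymes, 3 of 6 regulators and carriers and 3 of 12 fatty acid enzymes, 22 of 36 in all, beside 21.8% of all tested genes. Fdps, for example, had 15.8 CPM in 3D m60 and 25.6 CPM in 2D m60, against 85.9 to 255 CPM in the other organoids. The lower sum of proliferation markers in 3D m60 moved with this, and its part was not tested.

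Without m60, every sterol enzyme but Ebp had a mean difference of at least 0.66. For 7 of 18 (Pmvk, Fdps, Lss, Cyp51, Tm7sf2, Msmo1 and Nsdhl) the 6 organoids lay wholly above the 6 2D libraries, as they did for Insig1, Srebf1 and Elovl6, beside 1.22% of all tested genes. The limma fit on these 6 lines called 4 of 36 genes higher, namely Elovl6, Insig1, Pmvk and Sqle, beside 0.362% of all genes. Because m60 was left out with its values known, these counts describe the remaining lines and support nothing further.

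**Figure D3:**
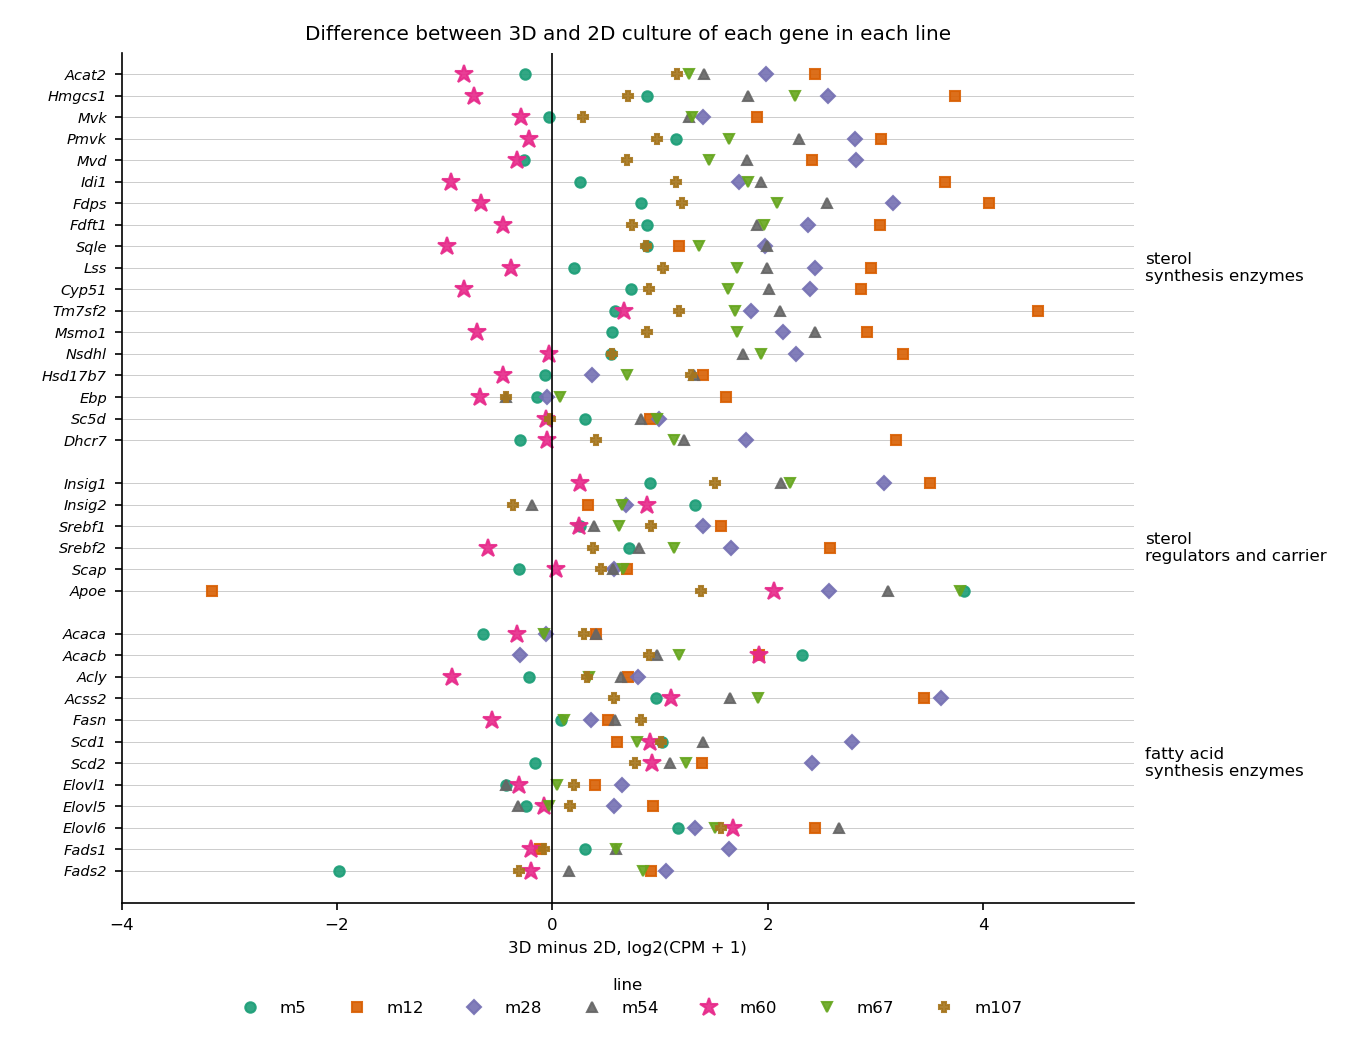
Difference between the 3D and the 2D library of each line on the log2(CPM + 1) scale (x axis) for the 36 genes (y axis), with 1 symbol per line. Stars for m60 lie left of 0 for 17 of 18 sterol synthesis enzymes and right of it for Acacb, Acss2, Scd1, Scd2 and Elovl6, and squares for m12 lie furthest right for 15 of 18 sterol enzymes.

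The other end of the order was m12, with the largest difference for 15 of 18 sterol synthesis enzymes. Over all tested genes m12 had the largest difference for 24.7% and the smallest for 26.4%. In this line organoid levels were the highest of the 7 for 10 of 18 enzymes and 2D levels the lowest for 14 of 18. Over the 11677 tested genes these counts were 2322 and 1622. Hmgcs1 had 562 CPM in 3D m12 and 41.3 CPM in 2D m12. Both libraries of m12 are those described as unmatched, and the epithelial markers of 3D m12 moved with its sterol genes, the part of which was not tested. Without m12 the median log2 fold change of the sterol enzymes was 1.08, and without m5 and m12 it was 1.26.

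**Figure D4:**
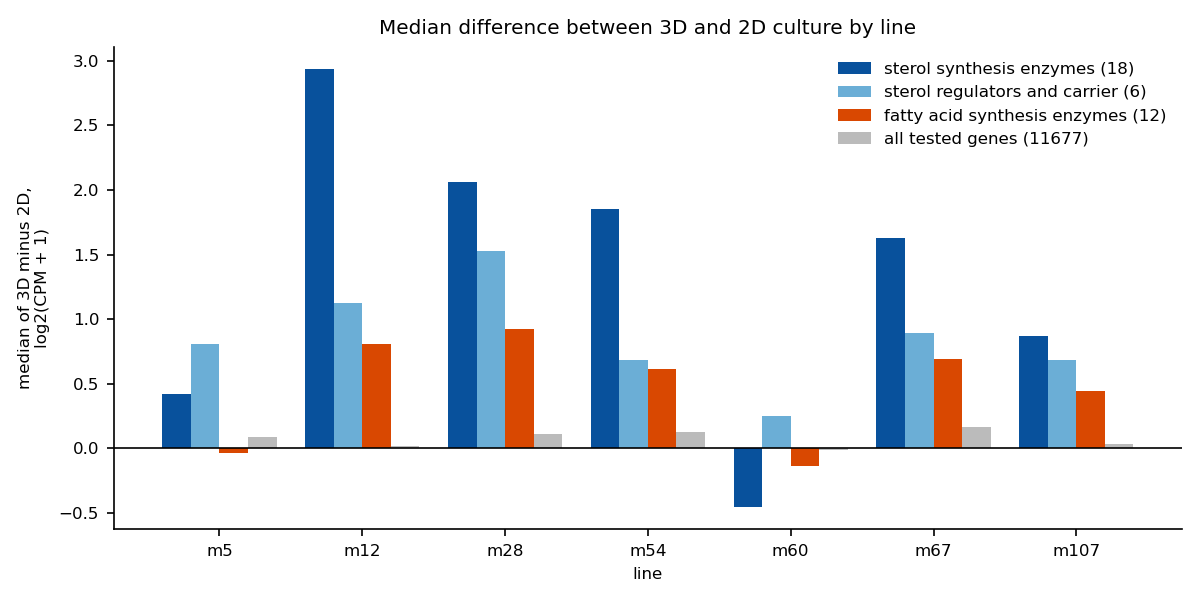
Median difference between 3D and 2D on the log2(CPM + 1) scale (y axis) in each of the 7 lines (x axis), over the sterol synthesis enzymes, the regulators and carriers, the fatty acid enzymes and all tested genes (bars). Sterol enzymes had the largest median of the 3 groups in m12, m28, m54, m67 and m107, and a negative one in m60 alone.

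Among the regulators, Insig1 rose in MM organoids, to 69.0 to 363 CPM (median 198) in 3D against 13.5 to 105 CPM (median 57.7) in 2D. Its mean was 209 ± 91.2 CPM in 3D and 55.5 ± 27.6 CPM in 2D (SD, n = 7 lines), and 6 of 7 organoids lay above the 2D range. The log2 fold change was 1.94 with an SE of 0.37 and a 95% confidence interval of 1.09 to 2.79 (adjusted p = 0.0363, limma). It was higher in 7 of 7 lines, by 0.25 in m60 and by 0.90 to 3.50 in the others. Without m5, m28, m54 or m67 in turn the call was lost (adjusted p of at most 0.103, limma), while without m60 or without m5 and m12 it held (adjusted p = 0.0461 and 0.0444, limma). Insig2, its homologue, had 35.0 to 105 CPM in 3D and 21.7 to 64.0 CPM in 2D and missed the threshold, with 0.47 on the log2 scale (adjusted p = 0.207, limma), and its highest organoid level was that of m60.

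Srebf1, the gene of SREBP-1, was higher in 3D in 7 of 7 lines, at 132 to 244 CPM (median 191) in 3D and 76.8 to 133 CPM (median 123) in 2D (log2 fold change 0.77, SE 0.19, adjusted p = 0.0624, limma). Srebf2, the gene of SREBP-2, had 219 to 1082 CPM (median 531) in 3D and 87.2 to 834 CPM (median 254) in 2D. It was higher in 6 of 7 lines, and in m60 it differed by -0.60, as the sterol enzymes did in sign (log2 fold change 0.95, SE 0.33, adjusted p = 0.123, limma). Scap, the escort of the SREBPs, had a log2 fold change of 0.38 (adjusted p = 0.158, limma).

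Apoe, which encodes an apolipoprotein that carries cholesterol, went the other way in m12 alone. It stood at 3.90 to 191 CPM (median 50.3) in MM organoids and at 2.63 to 42.8 CPM (median 5.16) in 2D MM cell lines, higher in 6 lines by 1.38 to 3.82 and lower in m12, with 3.90 CPM in 3D m12 and 42.8 CPM in 2D m12. The log2 fold change was 1.94 with an SE of 0.77 (adjusted p = 0.166, limma). Without m12 it was 2.79 and passed (adjusted p = 0.00796, limma), as it did without m5 and m12 (adjusted p = 0.0162, limma). Macrophages also express Apoe. In 3D m67, where their markers were highest, it had 84.1 CPM, against 5.16 CPM in 2D m67 (difference 3.79). In 3D m28, where 11 such markers summed to 5.62 CPM, it had 191 CPM. The part of macrophages in these levels was not tested.

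Among the fatty acid genes an elongase, a desaturase and an acetate-activating enzyme rose, while none of the genes for the steps from citrate to palmitate passed the test. Elovl6 stood at 70.8 to 249 CPM (median 145) in MM organoids and at 23.3 to 65.8 CPM (median 38.4) in 2D MM cell lines, so that no organoid overlapped any 2D library. Its mean was 149.6 ± 69.0 CPM in 3D and 41.0 ± 13.5 CPM in 2D (SD, n = 7 lines), a log2 fold change of 1.76 with an SE of 0.20 and a 95% confidence interval of 1.31 to 2.22 (adjusted p = 0.0108, limma). It rose in 7 of 7 lines, by 1.17 (m5) to 2.66 (m54), with 1.68 in m60. Elovl6 was called in 17 of 18 alternative analyses, the exception being the p53+/- crocidolite lines alone (adjusted p = 0.0700, limma).

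Desaturases put the first double bond into saturated chains. Scd1 rose to 165 to 625 CPM (median 293) in 3D, against 89.8 to 228 CPM (median 136) in 2D, with means of 342 ± 148 CPM in 3D and 144 ± 53.3 CPM in 2D (SD, n = 7 lines). Its log2 fold change was 1.21 with an SE of 0.25 (adjusted p = 0.0403, limma), higher in 7 of 7 lines and largest in m28, at 2.79. The call held without m12 (adjusted p = 0.0294, limma) and was lost when any other line was left out (adjusted p of at most 0.0989, limma) or both m5 and m12 (adjusted p = 0.0528, limma). Scd2, its homologue, with the highest CPM of the 36 (not scaled for gene length), had 745 to 1992 CPM (median 1358) in 3D and 312 to 1172 CPM (median 671) in 2D, higher in 6 of 7 lines (log2 fold change 1.09, SE 0.26, adjusted p = 0.0585, limma). Both were higher in 3D m60 than in 2D m60, by 0.91 for Scd1 and 0.93 for Scd2.

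Acss2 makes acetyl-CoA from acetate. It rose to 5.02 to 60.2 CPM (median 15.1) in MM organoids, against 0.400 to 5.94 CPM (median 4.10) in 2D MM cell lines, with 6 of 7 organoids above the 2D range. The log2 fold change was 1.89 with an SE of 0.41 (adjusted p = 0.0460, limma), and it depends on the pseudocount at such levels, being 2.24 with 0.1 and 1.27 with 5. The call held in 4 of 18 alternatives, namely DESeq2, quantile normalization and the omission of m12 or of m107. In the others the adjusted p lay above the threshold, up to 0.114 without m28 (limma), with 0.0694 without m5 and m12 (limma). The lowest 2D value, in m28, rested on 6 reads.

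The cytosolic steps from citrate to palmitate did not pass the test. Acly, which splits citrate, stood at 145 to 456 CPM (median 404) in 3D and at 237 to 332 CPM (median 262) in 2D (log2 fold change 0.23, 95% confidence interval -0.25 to 0.72, adjusted p = 0.519, limma). Fasn, the fatty acid synthase, had 364 to 900 CPM (median 592) in 3D and 334 to 833 CPM (median 442) in 2D, a log2 fold change of 0.27 (95% confidence interval -0.12 to 0.66, adjusted p = 0.347, limma). Acaca, the cytosolic acetyl-CoA carboxylase, had a log2 fold change of 0.00 (95% confidence interval -0.35 to 0.35, adjusted p = 0.996, limma; -0.080 with TMM scaling), and 42.8% of its 100-base windows occur in another gene, Gm5182. For Acly, Fasn and Acaca the upper bounds of these intervals thus lie below 1 on the log2 scale. Acacb, the carboxylase isoform of mitochondria, stood at 4.31 to 32.4 CPM (median 10.9) in 3D and 2.93 to 7.80 CPM (median 5.06) in 2D, and was higher in 6 of 7 lines (log2 fold change 1.27, SE 0.31, adjusted p = 0.0605, limma). Its highest level was that of 3D m60.

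The remaining elongases and desaturases act mostly on longer or polyunsaturated chains. Log2 fold changes were 0.02 for Elovl1, 0.14 for Elovl5, 0.39 for Fads1 and 0.07 for Fads2, with adjusted p of 0.961 for Elovl1, 0.622 for Elovl5 and 0.921 for Fads2, and none passed (limma), while Elovl1 and Fads2 took the opposite sign with TMM scaling (-0.065 and -0.014). Fads2 varied most between lines, with a difference of -1.98 in m5 and 1.05 in m28. In m60, 5 of 12 fatty acid enzymes were higher in 3D (Acacb, Elovl6, Acss2, Scd2 and Scd1, by 1.92 to 0.91), and Acly differed by -0.93.

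Other genes of these processes, 126 in 8 lists, were examined beside the 36. Of those that passed the filter on low values, 4 rose in 3D and 0 fell (limma, adjusted p under 0.05), beside 2.10% of all tested genes higher and 1.18% lower. In the list of other sterol synthesis, uptake and trafficking, 1 gene of 15 tested was called, Gramd1b, which moves cholesterol from the plasma membrane (log2 fold change 1.76, adjusted p = 0.0358, limma). Among other genes of fatty acid synthesis it was 1 of 14, the mitochondrial citrate carrier Slc25a1 (log2 fold change 1.22, adjusted p = 0.0312, limma). Acsl4, which activates long polyunsaturated fatty acids, was the 1 call among 11 genes of uptake and activation (0.84, adjusted p = 0.0402, limma), and Lipe, the hormone-sensitive lipase, the 1 call among 14 of triglyceride turnover (1.27, adjusted p = 0.0331, limma). All of Gramd1b, Slc25a1, Acsl4 and Lipe were higher in 7 of 7 lines, m60 included. Each of these calls was lost without any of several single lines (adjusted p of at most 0.0862 for Gramd1b, 0.0942 for Slc25a1, 0.119 for Acsl4 and 0.0998 for Lipe, limma), edgeR called 0 of the 4, and without m5 and m12 only Slc25a1 was still called. No gene was called by limma or edgeR among 11 of SREBP processing, 8 LXR targets and efflux genes, 14 of the non-sterol isoprenoid branch or 20 of fatty acid oxidation. DESeq2 called 3 of the LXR targets and 1 oxidation gene higher and 1 SREBP processing gene and 2 isoprenoid genes lower, and at an unadjusted p under 0.05 limma had 4 LXR targets, 4 oxidation genes and 1 SREBP processing gene higher and 2 isoprenoid genes lower. Lipe is also an adipocyte marker. The 9 adipocyte markers, Lipe included, summed to 12.1 to 30.6 CPM in 3D and 3.54 to 19.6 CPM in 2D. Most of this sum was Lipe itself in every library except 3D m67 and 2D m60, so it largely repeats the values of Lipe. In m107, for example, Lipe had 25.8 of 25.8 CPM in 3D and 19.4 of 19.6 CPM in 2D. Fabp4 was higher than Lipe in 3D m67 (18.3 CPM) and 2D m60 (7.86 CPM), and Plin1 was at 0 in 13 of 14 libraries. The part of adipocytes in the level of Lipe was not tested.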

How the data were processed

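A strand-specific kit was used to make 1 library per culture (3D and 2D) from each of 7 MM lines. Per the methods, the authors ran FastQC 0.10.0, Trim Galore 0.6.4, STAR 2.7.9a (GRCm39) and HTSeq 0.12.4. The authors deposited CPM, read counts scaled to the library total, in which 100% of values were whole reads within 0.001 reads, so a count of 0 allows 3 reads, or 0.0556 to 0.269 CPM (counting error only). Rows without a gene name (77) held at most 0.117% of reads. They were kept under their gene ID and were subject to the same filter on low values as the other rows. Columns with a p-value, a q-value and a ranking from the authors' own comparison were deposited too and were not used.

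Log2(CPM + 1) was fitted with limma 3.58.1 in R 4.3.3, with line as a block, following the paired comparison in the methods, with Benjamini-Hochberg adjustment over 11677 genes. By its labels each line, from 1 mouse, was grown both ways, which pairs the libraries. In a check, deviations from the culture means correlated within a line at r = 0.317 to 0.703 in 5 of 7 lines, but at 0.004 in m5 and -0.110 in m12, so the block joins unlike libraries there. Alternatives were pseudocounts of 0.1 and 5, no filter, a mean of at least 10 CPM, TMM and quantile scaling, no block, edgeR 4.0.16 and DESeq2 1.42.0 on recovered reads, and subsets of lines. In fits on a subset of lines a gene needed 1 CPM in at least 0.5 of its libraries. There was 1 library per line and culture. In the fits with line as a block, a p-value therefore sets the mean difference between the cultures against the spread of that difference over lines. This spread also holds the noise of single libraries. The fits were also run on simulated reads in which each changed gene had the same fold in every line. Such data hold no reversed line and no unmatched pair, so no conclusion on the calls here is drawn from them.

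The 36 genes and the other lists were chosen with earlier results of these data known. Among other genes, those passing the test were named, and any further gene is marked as named after its values were seen. Positions and shared windows of 100 bases came from GENCODE on GRCm39. Reads from other copies of a gene may be included in its value. Acat2, Hmgcs1, Fdft1, Sqle, Cyp51, Nsdhl, Srebf1, Srebf2, Scap, Acaca, Acly, Acss2 and Elovl1 overlap a gene on the opposite strand, and whether counting used strand is not given in the sources used here.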

Additional observations from a re-analysis of the deposited data

Results flagged for a closer look

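In 15 of the 108 groups examined (each gene's 7 organoid levels, 7 levels in 2D and 7 differences between the cultures), the highest or the lowest line lay further from its nearest neighbour than the 95% critical value of Dixon's test allows, and chance flags about 1 in 20 groups. The genes of a library are not independent of one another. That m60 ran against the other lines for most sterol genes was known when the genes were chosen, so its values here are a description. It gave 5 of the 15, all among sterol enzymes. Its organoid library was lowest for Pmvk (8.91 CPM, next 37.9 CPM), Fdps (15.8 CPM, next 85.9 CPM), Cyp51 (62.7 CPM, next 270.5 CPM) and Msmo1 (38.2 CPM, next 169.8 CPM). Its difference for Sqle was -0.98, next to 0.87.

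The line m12 stood apart for Tm7sf2, with 45.2 CPM in the organoids (next 11.7 CPM) and a difference of 4.51 (next 2.12). For Ebp it had 89.5 CPM in the organoids (next 37.5 CPM) and a difference of 1.61 (next 0.07). For Apoe its difference was -3.16 (next 1.38).

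The line m28 had the largest differences for Scd1 (2.79, next 1.39) and Fads1 (1.64, next 0.59), and the lowest 2D level of Acss2 (0.400 CPM, next 3.05 CPM). Scap was highest in the organoids of m67 (192 CPM, next 118 CPM), and Lss in the 2D cells of m5 (95.7 CPM, next 51.9 CPM). Tm7sf2 and Ebp of m12, Apoe of m12 and Lss of m5 rest on the libraries that did not match their own partners.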

How the results depend on the processing

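Of 647 values of the 36 genes under 18 alternatives, 561 kept their direction and their side of the threshold, 25 passed it newly, 33 no longer passed it and 28 changed sign. Signs changed for 4 genes close to 0. Ebp was 0.0040 with a pseudocount of 5 and 0.064 in the p53+/- crocidolite lines. Acaca was -0.080 with TMM, -0.0026 with quantile scaling, -0.070 with edgeR, -0.078 with DESeq2 and -0.042 in the p53+/- crocidolite lines. Elovl1 was -0.065 with TMM, -0.023 with quantile scaling, -0.056 with edgeR, -0.063 with DESeq2 and -0.027 in those lines, and Fads2 -0.014 with TMM and -0.012 in those lines. With each line left out in turn, Ebp ran from -0.28 to 0.11, Acaca from -0.066 to 0.11, Elovl1 from -0.088 to 0.091 and Fads2 from -0.10 to 0.41.

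Counts of genes called higher moved more. For the sterol enzymes (0 in the report) they were 1 with the stricter filter, 1 without the replicate block, 12 with DESeq2 and 1 without m5 and m12, and 0 to 2 with each line left out (1 without m12, 2 without m60). For the regulators and carriers (1) they were 0 without a filter, 0 with edgeR, 3 with DESeq2, 0 in the p53+/- crocidolite lines, 2 without m5 and m12 and 0 to 2 with each line left out. For the fatty acid enzymes (3) they were 1 without a filter, 1 without the replicate block, 1 with edgeR, 5 with DESeq2, 0 in the p53+/- crocidolite lines and 1 to 3 with each line left out. Over all genes, calls in either direction (383) numbered 63 without a filter, 139 without the replicate block, 78 with edgeR, 1886 with DESeq2, 14 in the p53+/- crocidolite lines and 22 (without m28) to 775 (without m12) with each line left out. The cause of these shifts was not tested, and the subsets also hold fewer lines. No alternative called a member lower. Under the stricter filter Tm7sf2 had no value.

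With 7 lines and 1 library per line and culture, precision is set by the spread over lines of the difference between the cultures. For Fdps, for example, this difference ran from -0.66 to 4.05 on the log2 scale. The differences given for m5 and m12 are between libraries that did not match.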

Other observations

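Some genes outside the 36 were named after their values were seen. Stard4, a cytosolic sterol carrier, had a log2 fold change of 0.96 (adjusted p = 0.124, limma), and differed by -0.73 in m60. It was lower in the organoids of m60 than in its 2D cells and higher in those of the other 6 lines.

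Abca1 and Mylip are known targets of the oxysterol sensor LXR. Abca1, the cholesterol exporter, had 621.5 CPM in 3D m60 and 21.9 CPM in 2D m60, a difference of 4.77 on the log2(CPM + 1) scale. Abca1 was also higher in 3D in m67 (2.54) and m54 (0.45). It was lower in m5 (-3.14), m12 (-3.08), m28 (-1.47) and m107 (-0.22). Over all 7 lines its log2 fold change was -0.02 (adjusted p = 0.992, limma). Mylip, which encodes a ubiquitin ligase, differed by 2.20 in m60 and was higher in 6 of 7 lines. The median difference over 8 LXR targets and efflux genes was 1.04 in m60 and 2.01 in m67. It was 0.998 in m12, 0.93 in m5, 0.14 in m54, -0.01 in m107 and -0.04 in m28. The library 3D m67 also held 2238 CPM of macrophage and leukocyte markers, the part of which was not tested. These values come from single libraries and carry no test.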
